A study of Mus musculus with 19 samples.

Results

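The cytosolic ribosomal protein genes encode the protein components of the ribosome outside the mitochondria. They were taken from the RNA-seq table of mouse liver by symbol, as the rows named Rpsa or named Rps, Rpl or Rplp followed by a number and at most a closing a, l, x or y. The rule found 81 of 24054 gene rows, 32 of the small (40S) and 49 of the large (60S) subunit. It takes neither the Rps6k kinases, pseudogenes with a -ps name nor mitochondrial ribosomal proteins. The study deleted Raly, which encodes an RNA-binding protein of the hnRNP family, in liver. All mice were of strain C57BL/6, carried Raly flox/flox with loxP sites around exons 3 and 4, were fed chow and were killed 4 weeks after an adeno-associated virus. L-RalyKO mice (3) received AAV8.TBG.Cre and controls (3) AAV8.TBG.GFP, and the TBG promoter limits both transgenes to hepatocytes, so that other liver cells of an L-RalyKO mouse keep the gene. The labels call these groups RALY-KO and wild type, and the ages of these mice are not given in the sources used here. The paper describes littermate controls and male mice unless otherwise specified. It gives 4 mice per group for the liver RNA-seq, and 3 per group were available here. Each value is a read count scaled to 1000000 reads of a library's effective size, and log2 fold changes are L-RalyKO minus control on the log2(value + 1) scale, with n = 3 mice per group throughout.

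A ribosome holds most of its proteins in 1 copy, and the genes for them are scattered over the genome and transcribed in step with the ribosomal RNAs that RNA polymerases I and III make. Their mRNAs are short, abundant and stable. Many begin with a 5′ terminal oligopyrimidine (TOP) tract, a C followed by a run of C and T, through which mTORC1 and LARP1 set how much of the mRNA is translated. In liver, ribosome content follows feeding, growth and regeneration, and free ribosomal proteins that find no ribosomal RNA are degraded or bind Mdm2, the ligase that keeps p53 low. The genes have also left a great many processed copies (retrocopies) in mammalian genomes, so that a short read from such an mRNA often matches several places.

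The targeted gene was low in every library labelled as knockout. Raly (chr2:154616832-154692997, + strand, build NCBIM37, which is mm9) had values of 50.1, 48.6 and 46.8 in the controls and 6.34, 6.61 and 7.39 in the L-RalyKO mice. The groups did not overlap, and the difference was far larger than their spread (log2 fold change -2.67 with an SE of 0.069, 95% interval -2.83 to -2.51, adjusted p = 6.92e-07 by limma). The recovered reads per library lay between 28302983 and 38052705, and 3 reads correspond to a value between 0.0789 and 0.105. Of the marker lists, hepatocyte genes summed to between 94465 and 102972 in the controls and between 104316 and 105758 in the L-RalyKO mice, with 1 of 8 called, against 6.55% of all genes tested (Hnf4a, higher, a call lost without the first or second control or the first L-RalyKO mouse). This was the only list whose sums did not overlap, and the median log2 fold change of its genes was 0.12. Whether that bears on the ribosomal protein values was not tested. Kupffer cell genes summed to between 199.8 and 286.7 in the controls and 199.7 and 258.3 in the L-RalyKO mice, endothelial genes to between 252 and 260.4 and between 222 and 277, and stellate cell genes to between 228 and 254 and between 221 and 286. Genes of B and T cells were at 9.81 to 11.9 and 8.33 to 10.8 in sum, those of neutrophils at 0.477 to 0.842 and 0.263 to 0.785, those of cholangiocytes at 32.6 to 34.8 and 32.3 to 41.2, and those of red cell precursors at 729 to 1231 and 709.6 to 1408. Of 5 neutrophil genes, Retnlg, Camp and Ngp had at most 3 reads in every library. Only 1 of the 10 B and T cell genes, 3 of the 6 cholangiocyte genes and 0 of the 5 neutrophil genes in the table had values high enough to be tested. None of the tested genes in the lists other than hepatocytes was called, and what they contribute to the ribosomal protein values was not tested. In whole liver, fewer cells of a type and less RNA per cell cannot be told apart.

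No ribosomal protein gene changed between L-RalyKO and control livers beyond the test's threshold. Of the 81 genes, 80 had a read and 78 had a mean value of at least 1 and were tested. The test (limma with an intensity trend, Benjamini-Hochberg adjustment over all 11580 genes tested) called 0 of the 78 at an adjusted p under 0.05, against 758 of all genes tested (6.55%). At an unadjusted p under 0.05 there were 2 members, Rplp0 and Rps15a, against 22.7% of all genes. The smallest adjusted p of a member was 0.192. On recovered reads, edgeR, DESeq2 and limma voom also called 0 members, against 6.76%, 9.4% and 6.36% of all genes. At an unadjusted p under 0.05 they had 2, 1 and 2 members, against 22.4%, 19.3% and 22.7% of all genes.

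The point estimates were small and mostly above 0. The median log2 fold change over the 78 members was 0.055 beside 0.0044 over all genes tested, and 68 members lay above 0 and 10 below. The median was 0.064 for the 32 genes of the 40S subunit and 0.044 for the 46 tested genes of the 60S subunit. The range ran from -0.057 (Rpl37) to 0.25 (Rpl26). Scaling to total reads moved the median over all genes to -0.027 and that of the members to 0.021, a shift that all genes share, and left 49 members above 0. Without the third control the members' median was 0.021 with 53 above 0, and without the second it was 0.083 with 73 above 0. Without the second L-RalyKO mouse it was 0.033.

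The data bound the size of a change that could have gone unseen. The 95% interval of a single member reached 0.12 to either side of its estimate in the median. For 71 of the 78 members the whole interval lay within a 1.2-fold change in either direction, and for 75 within a 1.5-fold change. The exceptions at 1.5-fold were Rpl26, Rps4l and Rps27, which have low and scattered values and are described further on.

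**Figure D1:**
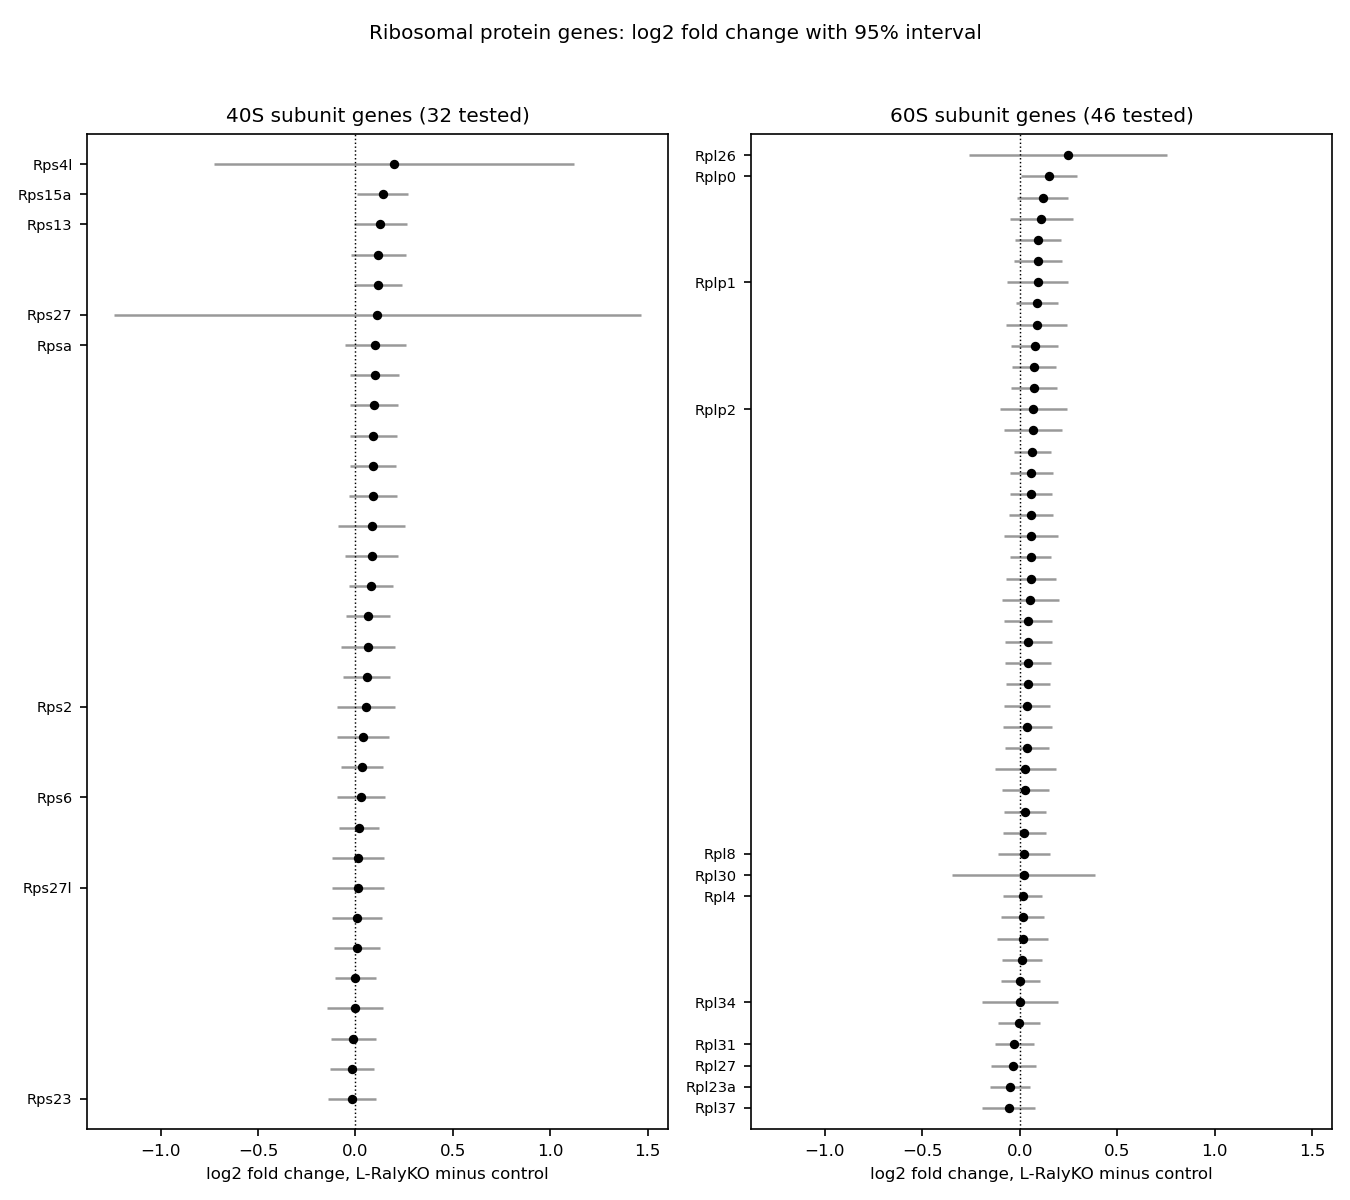
Log2 fold change (horizontal axis, L-RalyKO minus control, log2(value + 1) scale) of each of the 32 tested genes of the 40S and the 46 of the 60S subunit, with points for estimates, lines for 95% intervals from limma and labels for the genes named by rule. Most points lie a little right of 0, and only Rplp0 and Rps15a have intervals that leave 0 out.

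Groups that do not overlap were found for 7 of the 78 members, against 28.1% of all genes tested. In 6 of them every L-RalyKO value was above every control value (14.4% of all genes), namely Rps13, Rps28, Rps12, Rpl9, Rpl5 and Rpl10a. In 1, Rpl23a, every L-RalyKO value was below every control value (13.7% of all genes). An exact permutation test of 3 against 3 mice cannot give a p under 0.1, which these 7 reach.

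Among the 40S genes, the highest estimates beside Rps4l were those of Rps15a and Rps13, which encode proteins of the body and the platform of the subunit. Rps15a had values of 62.7, 70.2 and 63.8 in the controls and 72.3, 69.98 and 74.3 in the L-RalyKO mice (log2 fold change 0.14 with an SE of 0.057, 95% interval 0.0091 to 0.27, adjusted p = 0.192). The highest control mouse lay just above the lowest L-RalyKO mouse. Rps13 had values of 95.5, 101 and 87.4 in the controls and 103, 105 and 103 in the L-RalyKO mice (log2 fold change 0.13 with an SE of 0.059, 95% interval -0.0069 to 0.26, adjusted p = 0.243), with the highest control just below the lowest L-RalyKO mouse. Rpsa, which encodes the 40S protein first described as a laminin receptor precursor, had values of 279, 321 and 269 in the controls and 305, 317 and 309.8 in the L-RalyKO mice (log2 fold change 0.10 with an SE of 0.068, 95% interval -0.052 to 0.26, adjusted p = 0.415). The single highest value of this gene was in a control mouse, the second.

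Rps6 encodes the protein that S6 kinases phosphorylate downstream of mTORC1. Its mRNA had values of 256, 286 and 259 in the controls and 273, 275 and 269 in the L-RalyKO mice (log2 fold change 0.028 with an SE of 0.054, 95% interval -0.095 to 0.15, adjusted p = 0.808). The L-RalyKO mice lay inside the range of the controls. Rps23, a protein of the decoding centre, had the lowest estimate of the 40S genes, with values of 142, 157 and 143 in the controls and 146, 148 and 143 in the L-RalyKO mice (log2 fold change -0.018 with an SE of 0.053, 95% interval -0.14 to 0.10, adjusted p = 0.889). Rps19, the gene most often mutated in Diamond-Blackfan anaemia, stood at 0.083 ± 0.076, and Rps3, at the mRNA entry channel, at 0.058 ± 0.053 (log2 fold change ± SE). Rps27a, whose protein is made as a fusion with ubiquitin, stood at 0.091 ± 0.053.

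Among the 60S genes, the P-stalk genes code for the flexible arm to which translation factors with GTPase activity bind. Rplp0, the base of the stalk, had values of 289.9, 316 and 269 in the controls and 329.7, 325 and 314 in the L-RalyKO mice (log2 fold change 0.15 with an SE of 0.063, 95% interval 0.0062 to 0.29, adjusted p = 0.204). The second control mouse reached into the range of the L-RalyKO mice and the other controls did not. Rplp1 had values of 118, 125 and 105 in the controls and 127, 127 and 117 in the L-RalyKO mice (log2 fold change 0.094 with an SE of 0.069, 95% interval -0.063 to 0.25, adjusted p = 0.466). Rplp2 had values of 105, 116 and 94.5 in the controls and 104, 116 and 110.1 in the L-RalyKO mice (log2 fold change 0.07 with an SE of 0.076, 95% interval -0.10 to 0.24, adjusted p = 0.639). All 3 stalk genes thus had estimates above 0, and none was called.

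Rplp0 is also known as 36B4, the housekeeping gene to which the quantitative PCR of this study was normalized. Taken relative to Rplp0 in the same library, the log2 value of Srebf2, the gene of SREBP2, was -2.98, -2.95 and -2.94 in the controls and -3.07, -3.11 and -2.95 in the L-RalyKO mice. The difference was -0.085 relative to Rplp0 (exact permutation p = 0.2, two-sided, 0.1 being the smallest possible) and 0.064 without a reference gene. Setting Srebf2 against Rplp0 in these libraries therefore moved its log2 difference by 0.15, across 0. That shift is the fold change of Rplp0 itself, which was not called and was 0.094 without the third control and 0.21 without the second. By quantitative PCR in a larger set of mice, the paper reported a significant reduction of Srebp2 in L-RalyKO liver. It also reported less Srebp2 mRNA and less nuclear SREBP2 protein in primary hepatocytes without Raly. Whether the level of Rplp0 bears on those measurements was not tested. Of 6 other ribosomal protein genes set against Rplp0 in the same way, Rpl19 differed by -0.13, Rps6 by -0.12, Rpl13a by -0.10, Rps18 by -0.066, Rpl32 by -0.053 and Rpsa by -0.046. These genes were chosen after the values of Rplp0 were known, and as Rplp0 had a higher estimate than each of them the sign of these differences was fixed by the choice, so they are a description with no test.

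The lowest estimates of the 60S genes belonged to Rpl37, Rpl23a, Rpl27 and Rpl31. Rpl23a lies at the exit of the peptide tunnel, where the signal recognition particle docks. Its values were 139.9, 139.4 and 140.3 in the controls and 136.0, 139.1 and 130.0 in the L-RalyKO mice (log2 fold change -0.051 with an SE of 0.045, 95% interval -0.15 to 0.052, adjusted p = 0.552). The controls were within 1 unit of each other and all above the L-RalyKO mice. Rpl37 had values of 77.5, 76.02 and 69.3 in the controls and 69.4, 75.3 and 69.4 in the L-RalyKO mice (log2 fold change -0.057 with an SE of 0.06, 95% interval -0.19 to 0.08, adjusted p = 0.629), with overlapping groups. Rpl27 had values of 80.98, 86.4 and 80.2 in the controls and 80.98, 82.6 and 78.4 in the L-RalyKO mice and Rpl31, a neighbour of the tunnel exit, had values of 91.1, 89.7 and 89.9 in the controls and 88.6, 90.5 and 86.5 in the L-RalyKO mice (log2 fold changes -0.032 ± 0.05 and -0.027 ± 0.044, SE).

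Rpl5 and Rpl11 form a particle with 5S RNA that, outside a ribosome, can bind Mdm2. Rpl5 had values of 204, 209.6 and 206 in the controls and 214, 217 and 219 in the L-RalyKO mice (log2 fold change 0.066 with an SE of 0.042, 95% interval -0.03 to 0.16, adjusted p = 0.396). Rpl11 had values of 171, 173 and 159.9 in the controls and 167, 166 and 169.5 in the L-RalyKO mice (log2 fold change -0.0043 with an SE of 0.048, 95% interval -0.11 to 0.10, adjusted p = 0.970). The groups of Rpl5 did not overlap and those of Rpl11 did, and whether the 2 genes differ from each other in their change was not tested. Rpl8, next to the peptidyl transferase centre, and Rpl4, which lines the peptide tunnel, stood at 0.022 ± 0.059 and 0.017 ± 0.044.

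In sum the class took close to the same part of the library in both groups. The values of the 81 members added up to 10841, 11567 and 10521 in the controls and 11372, 11598 and 11195 in the L-RalyKO mice. The means were 10977 ± 536 and 11388 ± 202 (SD, n = 3 per group), a ratio of 1.04. As a percentage of the sum over all genes, the members held 1.12%, 1.17% and 1.05% in the controls and 1.10%, 1.15% and 1.12% in the L-RalyKO mice, a ratio of 1.01. The 40S genes summed to 4329 ± 251 in the controls and 4504 ± 78.9 in the L-RalyKO mice, and the 60S genes to 6647 ± 286 and 6885 ± 123. The ratio of 60S to 40S sums was 1.54, 1.51 and 1.55 in the controls and 1.52, 1.53 and 1.53 in the L-RalyKO mice. All of these ranges overlapped between the groups.

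The members rose and fell together from mouse to mouse within a group. The second control mouse had the highest control value for 66 of the 78 members and the third control the lowest for 57, against 31.5% and 33.5% of all genes tested. Measured as the log2 deviation from the mean of the group, the median member stood at -0.012, 0.073 and -0.069 in controls 1, 2 and 3 and at -0.0016, 0.024 and -0.027 in L-RalyKO mice 1, 2 and 3. The second control thus had 73 members above the mean of its group and the third control 8. In L-RalyKO, the second mouse had the highest value for 53 members and the third the lowest for 48.

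The control mice spread further apart than the L-RalyKO mice. The median SD of log2 values over the members was 0.081 in the controls and 0.038 in the L-RalyKO mice, beside 0.088 and 0.082 over all genes tested. The SD was larger in the controls for 65 of the 78 members, against 53.7% of all genes. These counts rest on 3 mice per group and on genes that move together, so they describe these 6 libraries only. The second control was also the library with the fewest reads. Sums of hepatocyte, Kupffer cell and red cell genes in the controls were 94465, 199.8 and 1218 in the first mouse, 102972, 286.7 and 1231 in the second and 100937, 235 and 729 in the third. In the L-RalyKO mice they were 104316, 258.3 and 1408 in the first, 105758, 199.7 and 709.6 in the second and 104407, 246 and 1003 in the third. The second L-RalyKO mouse thus had the lowest Kupffer cell and red cell sums of its group, unlike the second control. The part of these sums in the deviations was not tested.

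**Figure D2:**
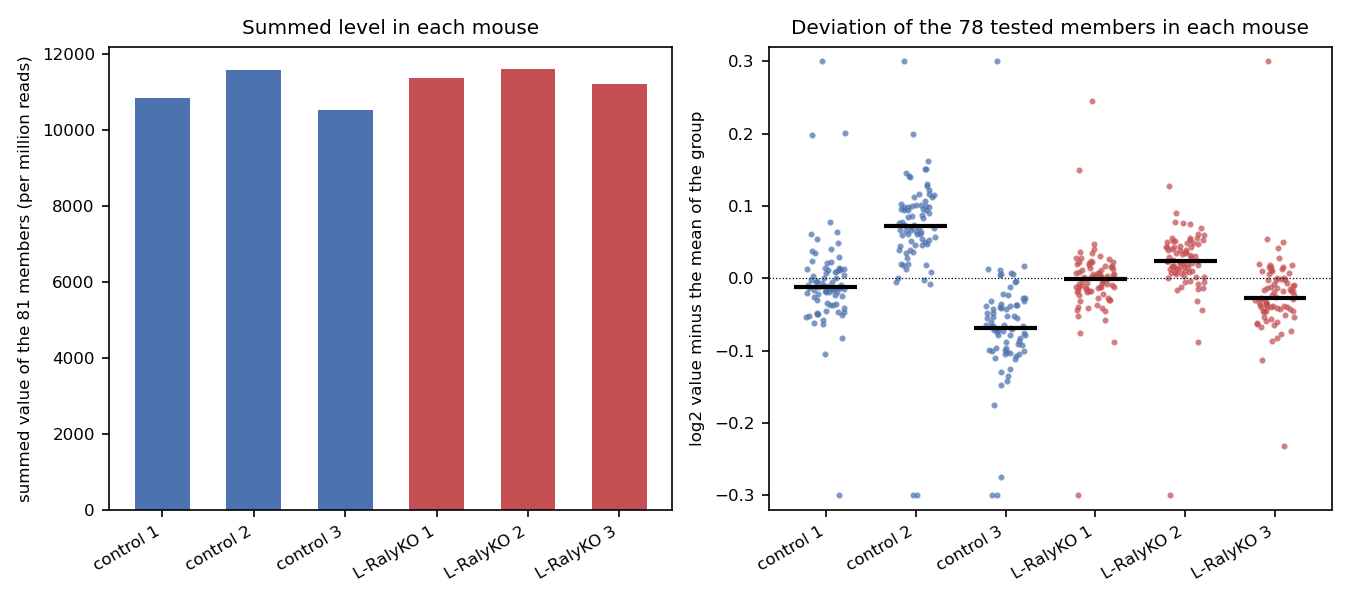
Left, summed value of the 81 members (per 1000000 reads) in each mouse; right, log2 deviation of each of the 78 tested members from the mean of its group, with bars for the median and 11 of 468 points beyond 0.3 drawn at the edge. Control 2 lies high and control 3 low, at medians of 0.073 and -0.069, and the L-RalyKO mice stay nearer to 0.

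Over the 6 libraries the deviations of 2 members had a median correlation of 0.70 over 3003 pairs, and 91.2% of the pairs were above 0. All pairs share the same 6 libraries and their scaling, so this is a description with no test. No such value is given for pairs of other genes, so it does not show how far the likeness is particular to the class. The deviations most like those of Rplp0 were those of Rpl6 (Pearson's r 0.99), Rps7 (0.98), Rpl13 (0.98), Rpl18 (0.97) and Rps21 (0.97), over 6 libraries. Rps4l had the lowest correlation with Rplp0 (-0.85), then Rpl26 (-0.077). Both have low values.

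The start of a ribosomal protein mRNA often carries a TOP tract, which is shown here because the members deviated together. In RefSeq promoters of GRCm38.p6 (250 bases before to 50 after the annotated start), 60 members were matched by symbol. A run of at least 5 bases that began with C and went on with C or T, on the sense strand and beginning within 10 bases of the start, was present in 35 of them (58.3%), against 30.8% of all 27025 promoters. The windows below run from 10 bases before the start to 20 bases from it, with the run in capitals where one was found.
Rpl7a (chr2:26910797-26910826, + strand): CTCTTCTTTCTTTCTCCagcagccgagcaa
Rpl27a (chr7:109519185-109519214, + strand): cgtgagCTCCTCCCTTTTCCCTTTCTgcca
Rpl14 (chr9:120571507-120571536, + strand): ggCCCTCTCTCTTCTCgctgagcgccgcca
Rps6 (chr4:86857348-86857377, - strand): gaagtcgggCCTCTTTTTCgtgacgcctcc
Rps15a (chr7:118116128-118116157, - strand): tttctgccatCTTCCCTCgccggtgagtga
Rplp0 (chr5:115559457-115559486, + strand): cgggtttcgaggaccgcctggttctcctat
Rpsa (chr9:120127756-120127785, + strand): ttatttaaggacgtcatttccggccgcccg
Rpl37 (chr15:5116603-5116632, + strand): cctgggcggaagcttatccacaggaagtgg
The first 5 show long runs, and Rplp0, Rpsa and Rpl37 have none that meets the definition around the RefSeq start. Annotated starts can lie some bases from the start in use, so that a missing run says only that none begins within 10 bases of the annotated start. The window of Rplp0 holds a C-led pyrimidine run farther on, which was not counted. Members with a run had a median log2 fold change of 0.057 (32 tested, 29 above 0) and members without one of 0.044 (25 tested, 22 above 0).

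Other motifs were searched on both strands of the same promoters. The words can share bases with each other or with the TOP run, as CCGGAA read on the other strand begins with pyrimidines. CCGGAA, the core of ETS factor sites such as those of GABPA, was present in 30 of the 60 member promoters (50%) and in 15.2% of all promoters. GGGCGG, the SP1 word, was present in 58.3% and 35.9%, and GCCATN, the core of YY1 sites, in 55% and 40.8%. CCAAT, the word bound by NFY, was present in 31.7% and 37.9%, TATAAA in 8.33% and 14.2% and CACGTG in 8.33% and 7.24%. Members with CCAAT had a median log2 fold change of 0.068 (19 tested) and those without it 0.053 (38 tested).

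Some members had values far below the rest of the class, and for 4 of them the row of a copy held most of the reads. These are Rpl26, Rpl30, Rpl34 and Rps27, chosen after their values were seen. For each, the copy that shares the most words of 31 bases with its coding sequence was looked up in the genome build NCBIM37. Rps27 and Rps27rt are the extreme case. The single-exon gene Rps27rt (chr9:114891515-114891858, - strand) has the same coding sequence as Rps27 (chr3:90016593-90017573, - strand), with 0 of 255 bases different. The related gene Rps27l (chr9:66793893-66797323, + strand), a target of p53, differs from both at 61 of 255 bases, which are in capitals here. The pair is shown because a read inside this sequence cannot be placed on Rps27 or Rps27rt by its letters.
Rps27 and Rps27rt: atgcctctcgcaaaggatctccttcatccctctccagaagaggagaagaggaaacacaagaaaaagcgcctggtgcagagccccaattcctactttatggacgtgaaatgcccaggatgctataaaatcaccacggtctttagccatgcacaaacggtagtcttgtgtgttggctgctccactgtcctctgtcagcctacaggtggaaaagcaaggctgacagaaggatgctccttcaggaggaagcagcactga
Rps27l: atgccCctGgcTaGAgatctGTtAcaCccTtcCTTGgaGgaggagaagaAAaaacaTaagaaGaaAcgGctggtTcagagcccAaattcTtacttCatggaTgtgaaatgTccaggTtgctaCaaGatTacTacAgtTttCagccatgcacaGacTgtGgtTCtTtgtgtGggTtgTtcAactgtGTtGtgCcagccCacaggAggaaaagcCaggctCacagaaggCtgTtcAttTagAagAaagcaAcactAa

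Rps27 had values of 1.25, 8.03 and 1.08 in the controls and 1.83, 1.45 and 6.71 in the L-RalyKO mice, with 2 mice, 1 of each group, well above the rest. Rps27rt had values of 71.7, 70.8 and 67.7 in the controls and 75.8, 80.7 and 73.96 in the L-RalyKO mice. The groups of Rps27rt did not overlap, with L-RalyKO higher (log2 fold change 0.13 with an SE of 0.052, 95% interval 0.012 to 0.25, adjusted p = 0.180). The sum of the 2 rows was 72.96, 78.8 and 68.8 in the controls and 77.6, 82.2 and 80.7 in the L-RalyKO mice (log2 difference 0.12, exact permutation p = 0.2), and Rps27 itself gave 4.41% of it. For the sum the groups overlapped, as the second control, which is high for Rps27, lay above the first L-RalyKO mouse.

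Rpl26 encodes a protein near the tunnel exit. The gene (chr11:68715085-68720491, + strand) had values of 25.3, 12.5 and 13.2 in the controls and 18.7, 21.2 and 18.2 in the L-RalyKO mice (log2 fold change 0.25 with an SE of 0.22, 95% interval -0.26 to 0.76, adjusted p = 0.560). The first control was the highest of all 6 mice and the other controls were the lowest. Without the first control, Rpl26 was the 1 member called (log2 fold change 0.56, adjusted p = 0.018 by limma). Its copy Gm15772, an annotated pseudogene at chr5:3236389-3236907, + strand, shares 84.8% of its coding words and had values of 98.6, 118 and 105 in the controls and 109.7, 109 and 109 in the L-RalyKO mice. The copy was lowest in the first control, where Rpl26 was highest. The sum of the 2 rows was 124, 131 and 118 in the controls and 128, 130.0 and 127 in the L-RalyKO mice (log2 difference 0.049, exact permutation p = 0.4), and the log2 difference of 0.25 for Rpl26 alone became 0.049.

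Rpl30 (chr15:34370260-34373395, - strand) had values of 8.32, 8.31 and 5.14 in the controls and 8.12, 6.73 and 6.87 in the L-RalyKO mice, and Gm12191, a pseudogene at chr11:49492212-49492559, - strand with 90.3% of its coding words, had values of 79.5, 75.3 and 75.6 in the controls and 74.3, 81.1 and 78.8 in the L-RalyKO mice. Rpl34 (chr3:130429749-130433316, - strand) had values of 23.4, 26.1 and 20.5 in the controls and 23.9, 22.7 and 23.1 in the L-RalyKO mice, and Rpl34-ps1 (chr6:71074583-71074994, + strand), with 80.9% of its words, had values of 50.6, 53.5 and 45.8 in the controls and 48.7, 53.9 and 50.97 in the L-RalyKO mice. The sums differed by 0.022 for Rpl30 (exact permutation p = 0.7) and 0.025 for Rpl34 (exact permutation p = 0.9) on the log2 scale. The members gave 14.4% (Rpl26), 8.56% (Rpl30) and 31.5% (Rpl34) of these sums. How reads that match both places were counted is not given in the sources used here, so the level of each of these 4 genes is uncertain.

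**Figure D3:**
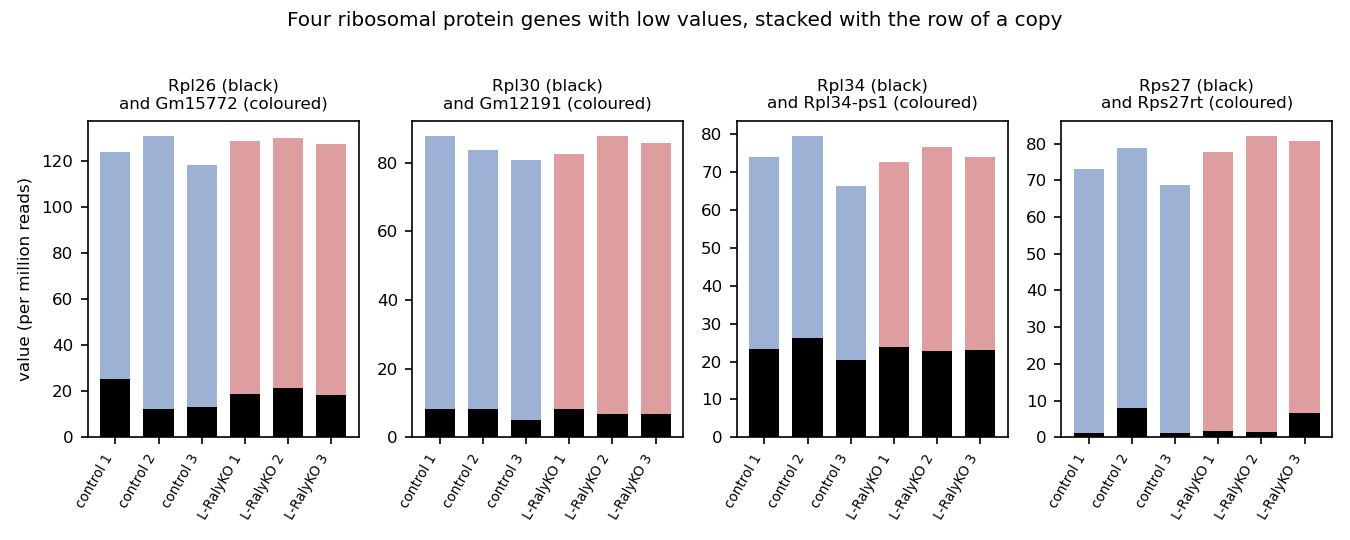
Values (per 1000000 reads) of Rpl26, Rpl30, Rpl34 and Rps27 in black, stacked with the row of the copy named in each panel, in each of the 3 control (blue) and 3 L-RalyKO (red) mice. In every mouse the copy holds the larger part, and for Rpl26, Rpl30 and Rps27 the stacks differ relatively less between mice than the black parts.

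Shared sequence is common in the class. Of the 80 members with a gene model, 31 had every 31-base word of their coding sequence at another place in the genome as well, 53 had at least 90% and 72 at least 50%. The median was 96.2%. Under 20% was found for 5, among them Rpl3l with none, Rpl8 (11.2%), Rpl39l (13.5%) and Rps3 (18.9%). Of these, the tested members Rpl8 and Rps3 had log2 fold changes of 0.022 ± 0.059 and 0.058 ± 0.053 (SE), both inside the range of the class. Across 77 members the share of words found elsewhere had a Spearman's rho of 0.030 with the log2 fold change and of -0.0043 with the level per kilobase, a description over genes that are not independent.

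Per kilobase of gene model the levels spread widely. With all exons of a gene joined (GENCODE vM1 on NCBIM37), the median of the 77 tested members with a model was 86.2 per kilobase, with quartiles of 49.0 and 161. The highest were Rps2 (339), at the mRNA entry, Rpl4 (286), Rps23 (268), Rpl8 (246) and Rplp1 (242). The lowest were Rpl30 (2.40), Rps27 (9.83), Rps15a (11.00), Rpl26 (12.6) and Rps4l (14.4), and 3 of these 5 are among the genes set beside a copy above. Rps2 also has 15 other places in the genome that hold at least 50% of its coding words.

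These levels depended on the gene model. Rps15a has joined exons of 6262 bases around a coding sequence of 393, and stood at 11.00 per kilobase of joined exons and 18.5 per kilobase of its lowest-numbered coding transcript. With that transcript the median was 170 and the quartiles 112 and 218. Rpl10 (199 and 510.2) then came second after Rps2 (567), and Rpl30 (8.18) stayed lowest. The orders by the 2 lengths had a Spearman's rho of 0.74 over 77 genes.

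**Figure D4:**
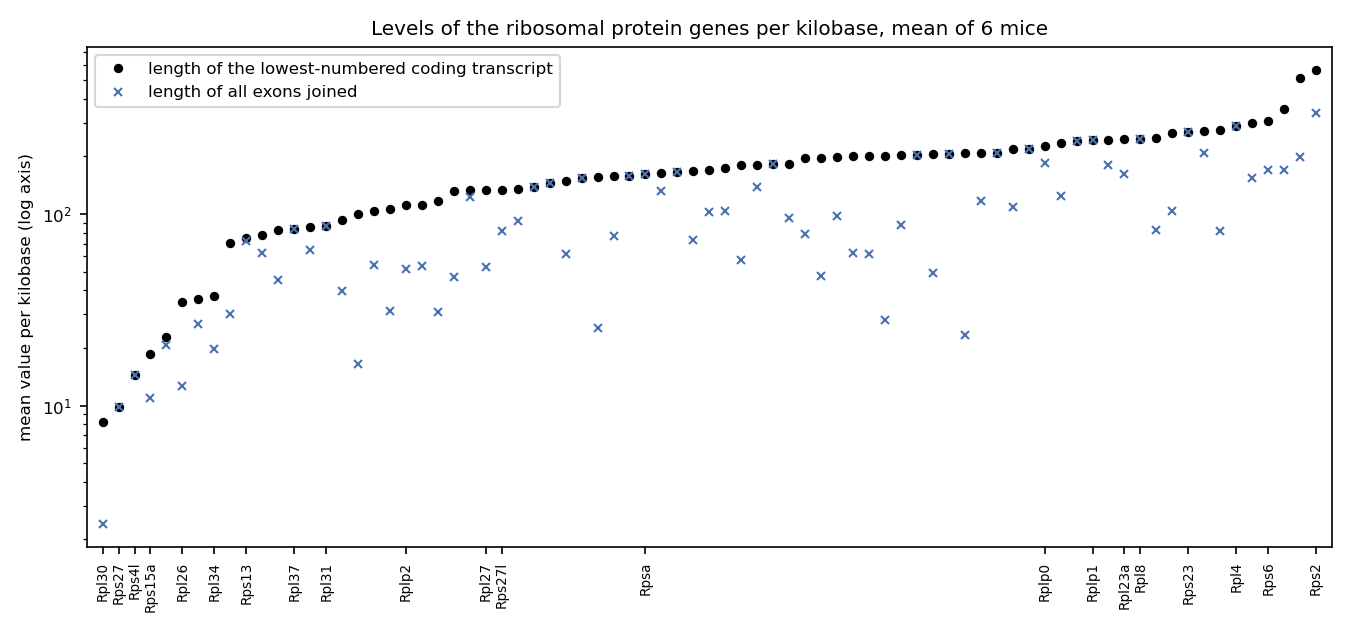
Mean value per kilobase over the 6 mice (vertical log axis) of the 77 tested members with a gene model, ordered by the level on the lowest-numbered coding transcript (black points), with the level on all exons joined as crosses and labels for the genes named by rule. Rpl30 and Rps27 are at the low end and Rps2 is at the top for both lengths.

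The variant subunit genes were nearly silent or low, apart from Rps27l. Rpl3l, the heart and skeletal muscle counterpart of Rpl3, had values of 0.0894, 0.0701 and 0.0270 in the controls and 0.0582, 0.116 and 0.184 in the L-RalyKO mice, while Rpl3 had values of 199, 228 and 217 in the controls and 215, 214 and 221 in the L-RalyKO mice. Rpl10l, a testis counterpart of the X-linked Rpl10, had no read in any library, which allows a value of up to 0.0789 to 0.105. Rpl39l, likewise known from testis, had reads in 1 library only (4 reads, a value of 0.105, in the third L-RalyKO mouse). Rps4l, annotated as Rps4y2 in GENCODE vM1, had values of 13.4, 4.98 and 22.1 in the controls and 16.1, 13.3 and 11.3 in the L-RalyKO mice (log2 fold change 0.20 with an SE of 0.41, 95% interval -0.72 to 1.12, adjusted p = 0.824), with the lowest and the highest value both in controls. Rps27l had values of 67.7, 69.1 and 61.5 in the controls and 66.3, 68.9 and 64.7 in the L-RalyKO mice (log2 fold change 0.012 with an SE of 0.058, 95% interval -0.12 to 0.14, adjusted p = 0.932).

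Of the subunit genes that the symbol rule leaves out, 8 were in the table. Limma called 0 of them, against 6.55% of all genes, with 2 at an unadjusted p under 0.05 (22.7% of all genes). The groups did not overlap in 3 of the 8, all with L-RalyKO higher, against 14.4% of all genes. Fau, which encodes a 40S protein fused to a ubiquitin-like protein, stood at -0.013 ± 0.052, Rps3a1 at 0.043 ± 0.045 and Gnb2l1, the gene of RACK1, at 0.072 ± 0.044 (log2 fold change ± SE). Rpl22l1, a paralogue of Rpl22, had values of 12.97, 16.02 and 15.8 in the controls and 17.98, 20.9 and 19.1 in the L-RalyKO mice (log2 fold change 0.35 with an SE of 0.093, 95% interval 0.14 to 0.57, adjusted p = 0.0597), with no overlap between the groups. On recovered reads edgeR and DESeq2 called this gene alone among the 8 (6.76% and 9.4% of all genes), and limma called it with the replicate block. Rpl22 itself stood at 0.011 ± 0.045. The difference between these 2 paralogues was not tested, and Rpl22l1 was named after its values were seen.

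Translation factors and other genes known for TOP mRNAs had point estimates above 0 in 19 of 20 cases and a median log2 fold change of 0.10, but 0 were called by limma, edgeR or DESeq2 (6 at an unadjusted p under 0.05 by limma, against 22.7% of all genes). Scaled to total reads, 17 were above 0 and the median was 0.068. The groups did not overlap in 11 of the 20, all with L-RalyKO higher, against 14.4% of all genes. Eef2, which moves the ribosome along the mRNA, had values of 1451, 1553 and 1503 in the controls and 1669, 1619 and 1598 in the L-RalyKO mice (log2 fold change 0.12 with an SE of 0.056, 95% interval -0.012 to 0.24, adjusted p = 0.263). Eif4b, a cofactor of the cap-binding helicase, had values of 303, 317 and 324 in the controls and 356, 342 and 337 in the L-RalyKO mice (log2 fold change 0.13 with an SE of 0.049, 95% interval 0.024 to 0.25, adjusted p = 0.143). Both were named after their values were seen.

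Ribosome assembly factors had a median of -0.058, with 36 of 47 tested genes below 0 and 1 called, against 6.55% of all genes (39 below 0 and 1 called when scaled to total reads). With edgeR 1 was called (6.76% of all genes) and with DESeq2 2, Mdn1 and Gnl3 (9.4% of all genes). The gene called by limma was Mdn1, a very large ATPase that removes assembly factors from the maturing 60S subunit. It fell from 14.9, 15.4 and 15.9 in the controls to 12.1, 11.4 and 12.9 in the L-RalyKO mice (log2 fold change -0.32 with an SE of 0.068, 95% interval -0.47 to -0.17, adjusted p = 0.0294), and the groups did not overlap. Over the alternative fits its adjusted p lay between 0.019 and 0.095, and the call was lost with all genes that had a read and when any of 5 of the 6 mice was left out, the third L-RalyKO mouse being the exception. The groups did not overlap in 10 of the 47 (9 lower and 1 higher in L-RalyKO), against 28.1% of all genes (13.7% lower and 14.4% higher). The list does not hold every assembly factor, and Utp20, a factor of 40S assembly outside it, had values of 31.4, 27.1 and 27.7 in the controls and 20.01, 18.9 and 20.1 in the L-RalyKO mice and was also called (log2 fold change -0.52 with an SE of 0.069, 95% interval -0.68 to -0.37, adjusted p = 0.00472). Gnl3 and Utp20 were named after their values were seen.

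Genes of RNA polymerase I and 5S RNA transcription had a median of 0.043 over 27 tested, with 16 above and 11 below 0 (0.011, 14 and 13 when scaled to total reads), 0 called by limma, edgeR or DESeq2 and 6 at an unadjusted p under 0.05 by limma, a share close to the 22.7% of all genes. Of 31 genes that control TOP mRNAs or transcription of ribosomal protein genes, 1 was called, against 6.55% of all genes, and the median was 0.0079 (-0.025 when scaled to total reads). The called gene was Mnt, a repressor that pairs with Max and opposes Myc. It rose from 9.03, 13.6 and 12.5 in the controls to 19.9, 24.2 and 19.3 in the L-RalyKO mice (log2 fold change 0.81 with an SE of 0.14, 95% interval 0.49 to 1.14, adjusted p = 0.0138). Myc, which drives ribosome production, had values of 3.22, 3.19 and 2.41 in the controls and 25.3, 17.1 and 3.66 in the L-RalyKO mice (log2 fold change 1.74 with an SE of 0.53, 95% interval 0.53 to 2.94, adjusted p = 0.0907), with 2 L-RalyKO mice far above the third. Limma did not call it, DESeq2 on recovered reads did, and limma called it with the replicate block or without the third L-RalyKO mouse. Mtor stood at -0.17 ± 0.071 and Gabpa at -0.072 ± 0.05. Myc, Mtor and Gabpa were named after their values were seen. The 77 mitochondrial ribosomal protein genes, which serve a separate ribosome, had a median of 0.0074, with 43 above and 34 below 0 (28 and 49 when scaled to total reads), 0 called by limma, edgeR or DESeq2 and 4 at an unadjusted p under 0.05.

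**Figure D5:**
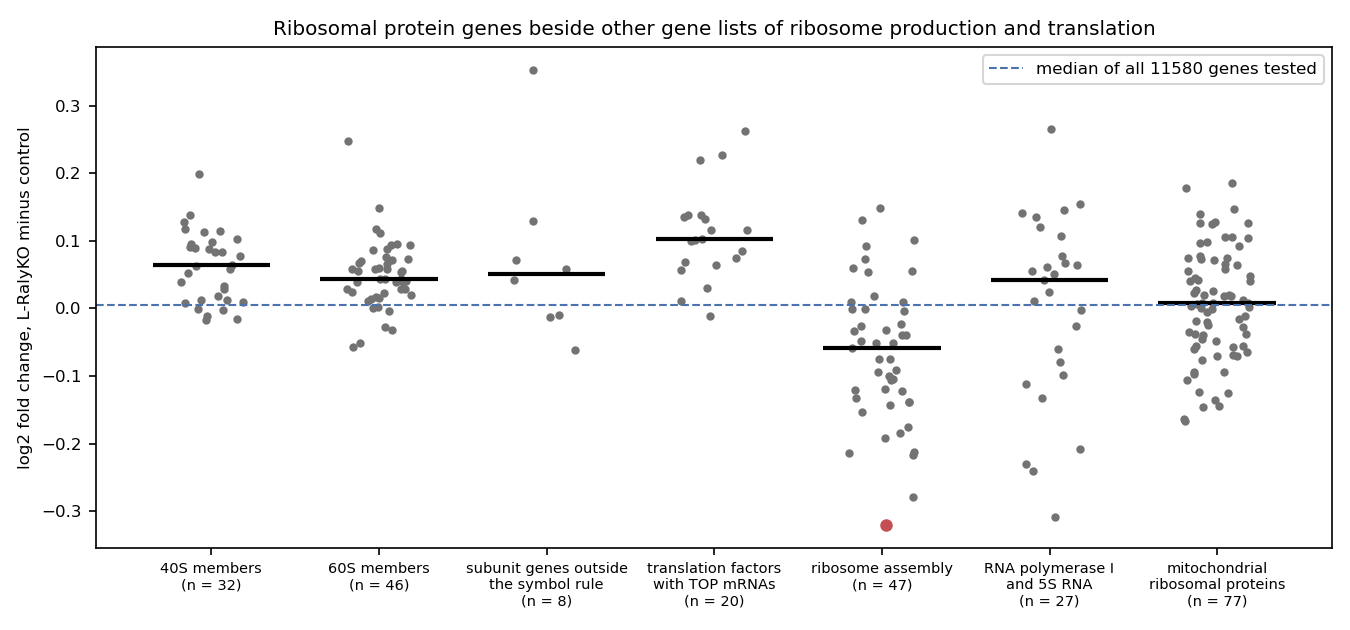
Log2 fold change (vertical axis, L-RalyKO minus control) of each tested gene in 7 lists, with bars for list medians, a dashed line for the median of all 11580 genes tested and a larger red point for the called gene Mdn1. The 40S and 60S members lie closely around medians of 0.064 and 0.044, and the assembly factors reach further down.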

How the data were processed

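The RNA-seq libraries of 3 L-RalyKO and 3 control livers entered the analysis, and the ATAC-seq and ChIP-seq samples were not analysed here. As deposited, each column is a normalized signal, which is a library's reads per gene over its effective size, times 1000000, without division by gene length. The methods name TopHat on mm9 and FPKM from Cufflinks, and do not describe these values. Every value of a column was a whole multiple of what 1 read is worth (100% in each library, within 0.01), and the implied scaling equalled TMM factors from edgeR. The design had named edgeR for counts first, with limma for values that are not counts, and limma was used.

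For the comparison, log2(value + 1) of the 11580 genes whose mean value reached 1 was fitted in limma (3.58.1, R 4.3.3) with an intensity trend, and p values were adjusted by Benjamini-Hochberg. The members and gene lists were chosen with earlier results of these data known. Genes named were the 5 highest and 5 lowest log2 fold changes, Rplp0, Rps6, Rpsa, the stalk and variant genes, the 5 highest and lowest levels per kilobase, called genes of the other lists and Raly. A few genes of the lists are counted but not reported singly here. Other genes were picked after their values were seen or for their known role.

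Alternatives were edgeR 4.0.16, DESeq2 1.42.0, limma voom, other scalings, another pseudocount, other filters, a replicate block and leaving out each mouse. The tools were tested on simulated data with changes larger than the estimate of any member, so that test does not bear on changes as small as theirs. Chosen after seeing the data were the coding transcript length for levels and sums with copies. Same-numbered mice are different animals. The labels tie no mice to a litter, and p values measure the spread between these mice. Intervals are at the 95% level. With 3 mice per group the replicates limit the precision more than the 28302983 to 38052705 reads per library. Copies were found by exact words of 31 bases of the coding sequence, outside the gene and 1000 bases around it.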

Additional observations from a re-analysis of the deposited data

How the results depend on the processing

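No member was called in either direction in the main test or in 16 of 17 alternatives, and leaving out the first control called 1, Rpl26, as higher (0 to 1 over the fits that leave out a mouse). The replicate block called 0 in each direction with a median log2 fold change of 0.055, and same-numbered mice had correlations of 0.066, -0.024 and 0.020, which do not pair them. The median over the members stayed above 0 in all alternatives. It was 0.045 with edgeR, 0.044 with DESeq2, 0.021 with scaling to total reads or by all genes other than the members, and 0.021 to 0.083 when a mouse was left out. The 2 ends of that range were the third and the second control. Without the second control, 16 members had an unadjusted p under 0.05 (20.7% of all genes), and without the third, 0. The second L-RalyKO mouse left out gave 0.033. The ratio of the members' percentage of all values was 1.01 in the main setting, 1.01 without the 20 highest genes and 0.985 to 1.04 when a mouse was left out, so its side of 1 rests on the third control. The median level per kilobase was 86.2 with joined exons, 141 with the longest transcript and 170 with the lowest-numbered coding transcript. Of 411 values of genes named by rule, 33 changed sign, all of genes not called, 1 passed the threshold (Rpl26, 0.56, without the first control) and 6 no longer did, all of Mdn1. Of 797 values of 47 other genes in the text, 35 changed sign, 13 of 7 genes passed the threshold (Bbc3, Ccng1, Cdkn1a, Gdf15, Gnl3, Myc and Rpl22l1) and 3 no longer did, all of Hnf4a. Depth limits only Rpl3l, Rpl10l and Rpl39l.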

Other observations

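Genes of the p53 response (Trp53, its regulators and its targets), listed because unused ribosomal proteins can raise p53, had a median log2 fold change of 0.21 over 12 tested, with 10 above 0, 0 called by limma or edgeR and 7 at an unadjusted p under 0.05 by limma (22.7% of all genes). DESeq2 called 3 (Bbc3, Ccng1 and Gdf15), against 9.4% of all genes. The groups did not overlap in 3 of the 12 (2 higher and 1 lower in L-RalyKO), a share no higher than the 28.1% of all genes. Cdkn1a, the cell cycle inhibitor p21, had values of 5.99, 2.49 and 10.8 in the controls and 11.4, 13.1 and 12.3 in the L-RalyKO mice (adjusted p = 0.134 by limma, 0.017 to 0.40 over the alternatives). Limma called Cdkn1a without the third control, which was the highest of the 3, with a log2 fold change of 1.42 in place of 1.01. Over all alternatives the log2 fold change of Cdkn1a lay between 0.55 and 1.42. Bbc3, the gene of PUMA, had values of 2.32, 3.51 and 3.27 in the controls and 5.26, 6.01 and 3.84 in the L-RalyKO mice (adjusted p = 0.0726 by limma), and limma called it without the third L-RalyKO mouse, as it did Ccng1. Cdkn1a and Bbc3 were the 2 without overlap that were higher. Mdm2 had values of 27.9, 24.5 and 25.7 in the controls and 32.8, 31.04 and 26.8 in the L-RalyKO mice, with overlapping groups (adjusted p = 0.189 by limma). Trp53, the gene of p53 itself, had values of 13.7, 13.5 and 15.7 in the controls and 12.4, 13.03 and 12.02 in the L-RalyKO mice, the 1 without overlap that was lower (adjusted p = 0.194 by limma). These genes were named after their values were seen, and Rps27l, the member of the ribosomal protein genes known as a p53 target, stood at 0.012 ± 0.058 (log2 fold change ± SE).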
